A study of Mus musculus with 2 samples.

Results

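The mouse keratin genes were examined for CTCF binding in embryonic stem cells (ESCs). Members were all protein-coding genes of the GENCODE M1 annotation (mm9) on chromosomes 11 and 15 whose symbol is Krt followed by a number, which gave 51 of 22367 protein-coding genes. Of these, 27 lie on chromosome 11 between 99094075 and 100131185, from Krt222 to Krt42, and are called the type I cluster here. The other 24 lie on chromosome 15 between 101177875 and 101862457, from Krt80 to Krt18, and are called the type II cluster. Each cluster was taken with 100 kb on either side, the edges, and the regions so defined held 64 of the 33788 deposited CTCF summits.

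CTCF was tagged with a localization and affinity tag that contains GFP and was expressed from a bacterial artificial chromosome (BAC) in R1/E mouse ESCs grown with LIF. Chromatin of this line was crosslinked with 1% formaldehyde, sonicated to about 500 bp and immunoprecipitated with a goat antibody against GFP (CTCF-GFP ChIP, 1 library) or with Goat IgG isotype control (IgG control, 1 library). Both libraries came from cells that carry the BAC, the GFP antibody sees only the tagged protein, and the labels also call the IgG library input DNA, which would make each ratio below a ratio to input. The CTCF library held 8391191 tags and the IgG library 7988889 tags. There is 1 library per antibody, so every test below compares these libraries and not conditions, and all intervals are 95% intervals that cover counting error only. No RNA was measured in the files used here, so the labelled cell type was not checked against marker genes.

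Keratins are the intermediate filament proteins of epithelia, and a filament is built from pairs of a type I and a type II protein. Krt8 and Krt18 pair in simple epithelia and are the first keratins of the embryo, Krt5 and Krt14 mark the basal layer of stratified epithelia, Krt1 and Krt10 its differentiated layers, and the hair keratins and inner root sheath keratins build the hair follicle. Krt18 is a type I gene that lies beside Krt8 in the type II cluster. CTCF is a zinc-finger protein that binds a long, directional DNA motif and, together with cohesin, takes part in chromatin loops and domain borders.

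The motifs at the nearest summits outside the 4 ends of the clusters are shown first. Whether these sites act as borders was not tested. Capitals mark the 19 bp CTCF motif and lower case the 10 bases on either side, read 5′ to 3′ along the strand of the motif. On mm9 the motifs with their flanks lie at chr11:99078736-99078774 (plus strand), chr11:100143483-100143521 (minus), chr15:101172383-101172421 (plus) and chr15:101896239-101896277 (minus).
Before Krt222: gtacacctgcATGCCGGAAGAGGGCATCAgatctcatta
After Krt42: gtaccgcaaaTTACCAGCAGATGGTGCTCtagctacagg
Before Krt80: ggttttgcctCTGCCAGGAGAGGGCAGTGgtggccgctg
After Krt18: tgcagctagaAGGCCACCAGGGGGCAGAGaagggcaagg

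In each cluster the motif before the first gene was on the plus strand and the motif after the last gene on the minus strand, so the pair of outer motifs faced each other across the keratin genes. This holds for the motifs outside the clusters, since at Krt222 and Krt18 a motif on the inner side was nearer, 11839 and 13643 bp from the end, and both of these were on the minus strand. The summits with the outer motifs lay 15208 bp before Krt222, 12335 bp after Krt42, 5598 bp before Krt80 and 33769 bp after Krt18. In this order, the motifs were 112, 18, 125 and 32 bp from their summits. The summit before Krt80 was only 8 tags high and failed the recount described below. Over the genome, 12245 motifs at summits were on the plus strand and 12275 on the minus strand.

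The tallest summit inside each cluster and the summits next to keratin gene starts are shown next, since the results on single genes turn on them. They lie at chr11:100030869-100030907 (plus strand), chr15:101814518-101814556 (minus), chr15:101834816-101834854 (plus), chr11:99106004-99106042 (minus) and chr11:99241064-99241102 (plus).
Between Krt19 and Krt9: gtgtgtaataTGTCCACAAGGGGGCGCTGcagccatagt
Between Krt78 and Krt8: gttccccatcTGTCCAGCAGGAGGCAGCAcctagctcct
At the start of Krt8: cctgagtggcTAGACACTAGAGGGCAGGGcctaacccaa
At the start of Krt222: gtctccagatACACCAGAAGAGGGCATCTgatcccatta
Upstream of Krt28: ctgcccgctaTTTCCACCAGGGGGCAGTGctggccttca

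For comparison, the most frequent base at each position of the matrix gave TGGCCACCAGGGGGCACTA. A match counted as a motif at a p-value of 1e-05 for this matrix, on either strand, within 150 bp of the summit. In the keratin regions 48 of 64 summits had such a motif, 75% (Wilson interval 63.2 to 84.0), next to 72.6% of all summits. The median motif scored 19.3 bits in the keratin regions and 19.2 bits over all summits, so summits of the keratin regions had motifs about as often and as strong as summits elsewhere. All but 1 of the 13 summits in the type I edges had a motif, and 7 of the 12 in the type II edges did.

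Several motifs of the type I cluster shared the letters AGAAGAGGG, among them that at the start of Krt222. These letters also occur in the consensus of the B2 repeat, a rodent retrotransposon, whose annotation was not used here. They stood in 5 of the 29 motifs of the type I cluster with its edges and in 0 of the 19 of the type II cluster. Over both regions the share was 10.4% (4.53 to 22.2), and over the motifs of all summits it was 19.6%.

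Summits lay inside both clusters and more densely at their edges. The type I cluster, 1037 kb long, held 24 summits, 2.31 per 100 kb (exact Poisson interval 1.48 to 3.44), and the type II cluster, 685 kb long, held 15, 2.19 per 100 kb (1.23 to 3.61). The 4 edges held 25 summits, 6.25 per 100 kb (4.04 to 9.23), against 2.27 (1.61 to 3.10) inside both clusters. Coding gene starts numbered 10 in the 400 kb of the edges and 111 in the 1722 kb of the clusters. These intervals do not overlap, although they treat summits as independent of each other, and the difference was not tested further. Over the assembled chromosomes the density was 1.32 per 100 kb, over chromosome 11 it was 2.31 and over chromosome 15 it was 1.37.

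Windows of the same length were tiled over the genome to place these counts. Of the windows as long as the type I cluster, 19.0% held at least as many summits, and their median was 10. Of the windows as long as the type II cluster, 22.2% held at least as many, and their median was 6. Both clusters thus held more summits than most windows, as many other windows did. The edges stood further out, since 100 kb windows had a median of 1 summit. At least as many summits were found in 7.11% of such windows for the edge before Krt222 (5 summits), 1.25% for the edge after Krt42 (8), 2.25% for the edge before Krt80 (7) and 7.11% for the edge after Krt18 (5).

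**Figure D1:**
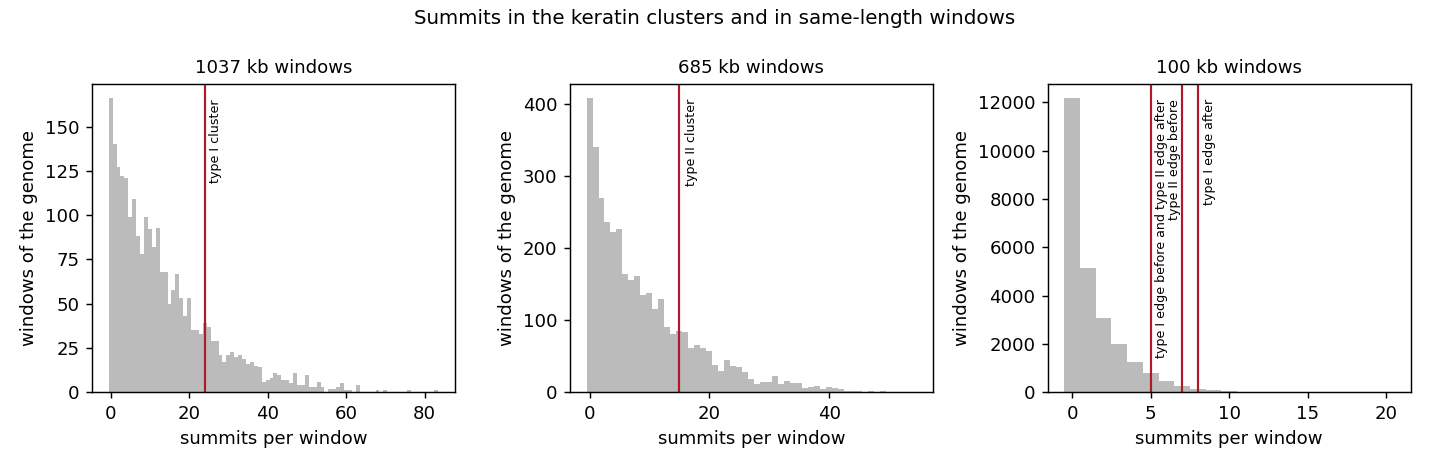
Number of CTCF summits per window (x axis) and number of windows of the genome (y axis) for windows as long as the type I cluster (left), the type II cluster (middle) and an edge (right). Red lines mark the type I cluster at 24, the type II cluster at 15 and the edges at 5, 7 and 8 summits; the clusters lie within the bulk of the right tail, and the edges farther out in it.

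Heights and tags of the summits were those of ordinary CTCF sites. The deposited height, the number of overlapping tags at the summit, had a median of 14 inside the clusters (order-statistic interval 11 to 16) and of 14 in the edges (12 to 20), beside 13 for all summits. The lowest keratin summit was 6 tags high and the highest 30. Summits after Krt42 had the highest median, 19 tags, over 8 summits from 11 to 23. A score of at least 100 was given to 62.5% of the summits of the keratin regions and to 59.2% of all summits. With edges, it was 67.6% for the type I cluster and 55.6% for the type II cluster.

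**Figure D2:**
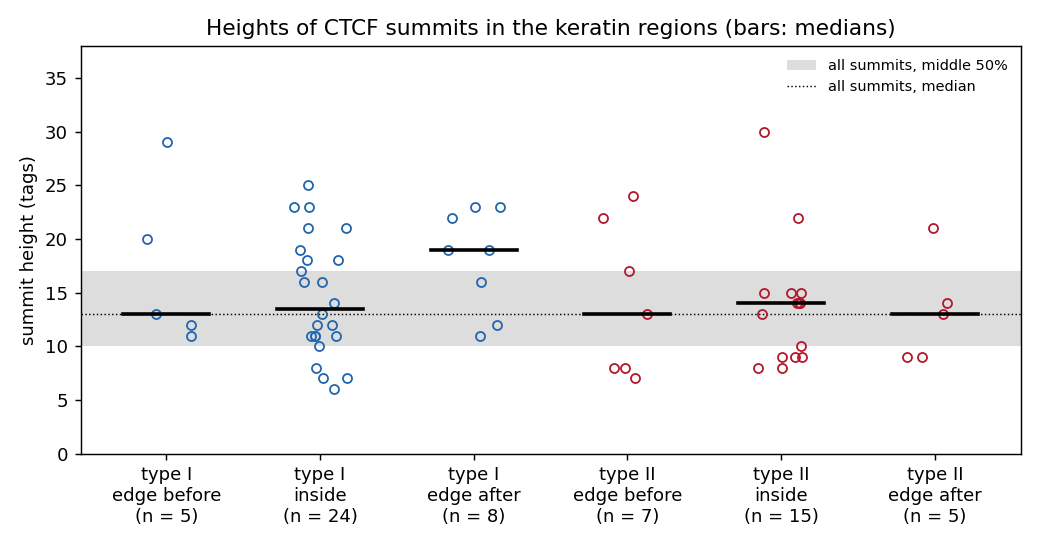
Height in tags (y axis) of each CTCF summit by its place in the keratin regions (x axis, with the number of summits), black bars at the medians, the dotted line at the median of all summits, 13 tags, and the grey band over their middle 50%, 10 to 17 tags. Medians are 13 to 14 tags in 5 of the 6 places and 19 tags after Krt42, and the summits of every place overlap with those of the others.

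Within 150 bp of the 64 summits lay 1079 CTCF tags and 76 IgG tags. Scaled to equal depth this was a ratio of 13.5 (exact interval 10.7 to 17.3), and 14.3 over all summits. Inside the clusters the ratio was 11.7 (8.76 to 15.9) and in the edges 17.0 (11.5 to 26.3), intervals that overlap. No summit of the regions had more than 4 IgG tags or fewer than 6 CTCF tags. The summits were called from these tags, so the ratios are a description and were not tested. The tags in 300 bp around each summit were also counted against the highest local IgG rate (Poisson, one-sided, p of at most 1e-05). This recount restates the peak call with the same libraries and is no independent support. It was passed by 51 of the 64 (79.7%) and by 85.5% of the deposited summits. The share was 86.5% in the type I cluster with its edges and 70.4% in the type II cluster with its edges.

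In the type I cluster the summits fell into separate stretches. Between 99435636 and 99825789 lay 390 kb without any summit. The 342 kb of the cluster before it, with the 12 keratin genes from Krt222 to Krt40, held 17 summits, the last 2 of them past Krt40. The 305 kb after it, with the 15 keratin genes from Krt33a to Krt42, held 7 summits, of which 4 lay before Krt33a. This stretch holds 49 coding genes, of which 17 are named Krtap, the keratin-associated proteins that crosslink keratin filaments in hair, and none is a keratin gene. It was singled out after the summits had been seen, as the longest gap of the cluster, and 3.27% of the 33736 gaps between neighbouring summits of the genome were at least as long.

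Outside peaks this stretch had 1116 CTCF tags and 1316 IgG tags. At equal depth the CTCF library thus had 0.807 times the tags of the other (0.745 to 0.875). This ratio was 0.898 for the genome outside peaks, and it was 1.18 (1.09 to 1.28) in the part before the stretch and 1.10 (1.01 to 1.19) in the part after it. The stretch was chosen for its lack of summits, which were called from the same CTCF tags, and the interval does not allow for that choice. The parts before and after it hold peaks, and tags that spill over from these are part of their ratios. IgG tags were no sparser in the stretch, 3.38 per kb, than over the genome outside peaks, 3.11 per kb. They were sparser than in the parts before and after the stretch, 3.57 and 3.66 per kb. They were not evenly spread, since 5 of its 78 bins of 5 kb, 6.41%, had at most 2 tags of both libraries together, where 3.92% of the bins of the genome did. With bins counted from the start of Krt222, as plotted, it was 7 of 77, 9.09%. Of its 35-base sequences, 13.0% occurred more than 1 time within the keratin regions, against 2.38% before it and 3.49% after it. The part that repeated sequence has in the missing summits was not tested.

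The stretch was not free of motifs. It held 32 at the same threshold, 8.20 per 100 kb, where the part before it held 14.9, the part after it 10.5 and chromosome 11 as a whole 14.8 per 100 kb. Around the 31 that lay away from peaks were 25 CTCF and 31 IgG tags within 150 bp, a ratio of 0.768 (0.435 to 1.34). In the longest stretch without a summit of the type II cluster, 21 such motifs had 38 CTCF and 14 IgG tags around them, a ratio of 2.58 (1.37 to 5.16), with at most 9 CTCF tags at a motif. The strongest motif of the type I stretch is printed because it scored 21.5 bits, above the median of the bound motifs, and had 0 CTCF and 0 IgG tags within 150 bp. It lies at chr11:99525661-99525679 on the plus strand. With 0 tags of both libraries, these counts do not show whether CTCF was absent there. Whether tags can be aligned at this site was not tested.
Motif without tags among the Krtap genes: ATACCAGAAGGGGGCACCC

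Inside the type I cluster as a whole, 23 of 116 motifs (19.8%) lay in a deposited peak. In the type II cluster 17 of 103 (16.5%) did. Over the whole of chromosomes 11 and 15 the shares were 15.3% and 13.0%, so that most matches to the motif had no peak in the clusters and elsewhere.

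**Figure D3:**
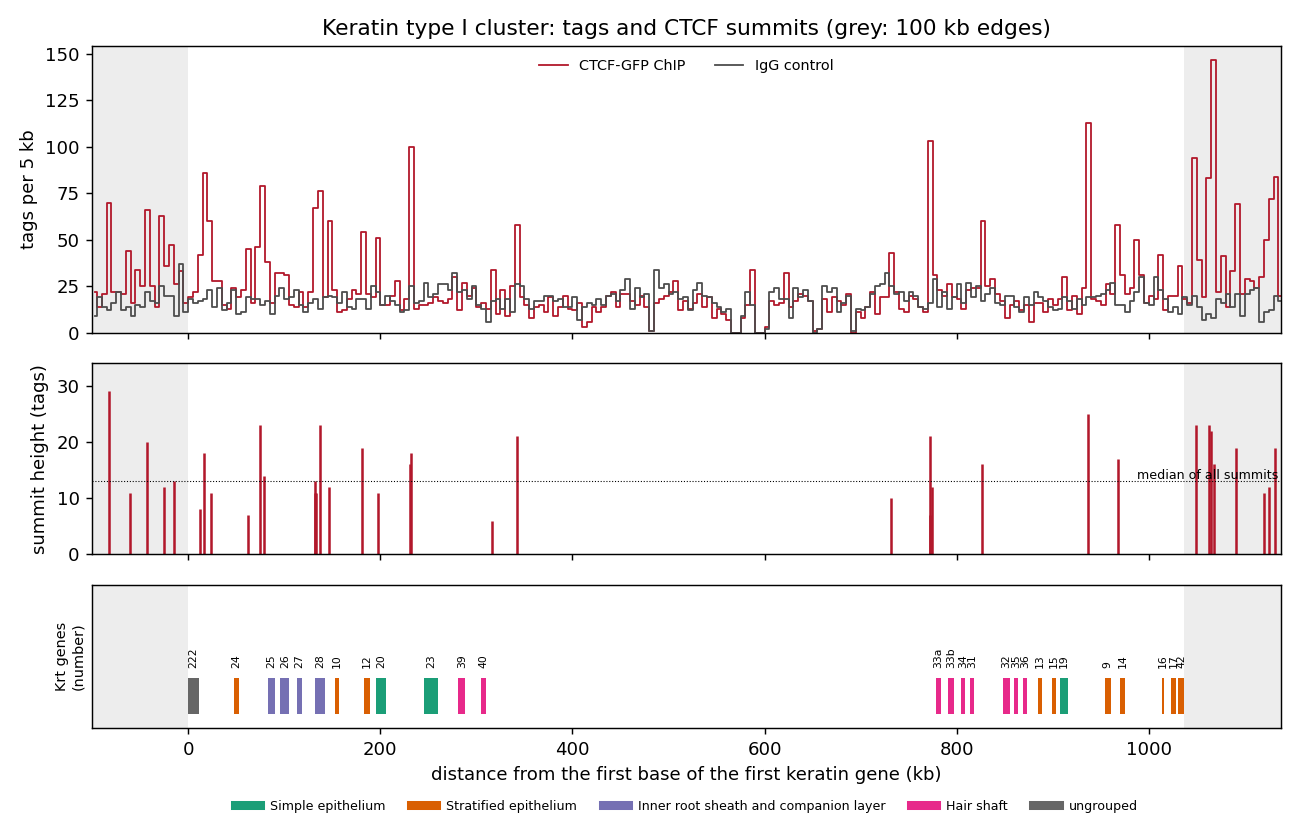
Tags per 5 kb of both libraries (top), height of each CTCF summit in tags (middle) and the 27 keratin genes coloured by group (bottom) along the type I cluster, by distance in kb from the first base of Krt222, with the 100 kb edges in grey. Summits stand on both sides of a 390 kb stretch that has none, which holds 7 of the plotted bins with at most 2 tags of both libraries and no keratin gene.

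Along the first part of the type I cluster, summits alternated with single keratin genes or runs of up to 3 of them. The longest of these runs, Krt23, Krt39 and Krt40, spanned 65.2 kb without a summit, about as long as the longest runs of the last part. Krt28, an inner root sheath keratin, was the gene with the most summits, 3 within its body. They were 11, 11 and 23 tags high, of which the first lay in a UTR and the others in introns, and none of the 3 had a motif. The first of them failed the recount. Another summit, 13 tags high, stood just past the end of the gene and had a motif of 13.9 bits. Over the gene body there were 125 CTCF and 28 IgG tags. In Krt20, a keratin of the gut lining, a summit 11 tags high with 12 CTCF and 0 IgG tags lay in coding sequence. Krt25 and Krt27, inner root sheath keratins, lay with Krt26 in a run of 35.6 kb without a summit. For Krt10, of the differentiated epidermis, the nearest summit was 9662 bp from the start and 12 tags high. For Krt12, the keratin of the cornea, it was 8635 bp away and 11 tags high.

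In the last part of the type I cluster the summits stood apart from runs of keratin genes. Krt32, Krt35, Krt36, Krt13, Krt15 and Krt19 followed each other over 67.8 kb with no summit between them, which brings hair keratins, the mucosal Krt13, the basal Krt15 and the simple-epithelial Krt19 into 1 run. Krt14, Krt16, Krt17 and Krt42 formed another of 66.7 kb. Between these runs stood the tallest summit of the cluster, at 100030882, 20903 bp upstream of Krt19, with a height of 25, a score of 460.8, 30 CTCF tags and 2 IgG tags. The next, 7033 bp upstream of Krt9, was 17 tags high with 20 CTCF tags and 1 IgG tag and had no motif.

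Past Krt42, the 8 summits of the edge all had motifs, of which 7 were on the minus strand. The nearest gene start was that of Krt42 for the first, of Eif1, a translation initiation factor gene, for the next 4 and of Hap1 for the last 3. The first, 12335 bp from Krt42, was 23 tags high with a score of 489.91, 28 CTCF tags and 1 IgG tag. The third had the highest score of this edge, 527.85, with 23 CTCF tags and 1 IgG tag. Before Krt222 the tallest summit was 29 tags high, with 38 CTCF and 3 IgG tags, in an intron of Ccr7, a chemokine receptor gene. The nearest to Krt222 was 13 tags high, with 13 CTCF and 3 IgG tags, in an intron of Smarce1, which encodes a chromatin remodelling subunit.

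In the type II cluster, summits stood closer together around Krt8 and Krt18 than over the other keratin genes. This contrast is within the cluster, which as a whole held 2.19 summits per 100 kb, where chromosome 15 held 1.37. The first 488 kb, with the 16 keratin genes from Krt80 to Krt2, held 8 summits up to and including that between Krt2 and Krt1, none taller than 15 tags. The next 136 kb, from 101665529 to 101801242, held Krt1, Krt77, Krt76, Krt4, Krt79 and Krt78 and no summit, and 12.7% of all gaps between summits were as long. The last 61.2 kb, with Krt8 and Krt18, held 7 summits of 8 to 30 tags. This division, too, was made after the summits had been seen, and 5 of the summits stood between Krt78 and the simple-epithelial pair Krt8 and Krt18. Krt80 and Krt7, also listed as simple-epithelial, lay in the first part, on the other side of them. Outside peaks the ratio of CTCF to IgG tags at equal depth was 1.12 (1.05 to 1.21) in the first part, 1.19 (1.04 to 1.35) in the middle and 1.5 (1.2 to 1.86) in the last.

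These 5 summits lay between Krt78 and Krt8, from 101801243 to 101818656, with heights of 15, 22, 30, 8 and 15. The tallest, at 101814627 and 20146 bp downstream of the start of Krt8, had the highest score of both keratin regions, 706.96, with 33 CTCF and 0 IgG tags. Its 201 bases are printed to show the position of the motif, in capitals, 90 bp from the summit at the centre. The sequence is chr15:101814527-101814727 on the plus strand, so the motif reads as the reverse complement of the line above.
Summit between Krt78 and Krt8: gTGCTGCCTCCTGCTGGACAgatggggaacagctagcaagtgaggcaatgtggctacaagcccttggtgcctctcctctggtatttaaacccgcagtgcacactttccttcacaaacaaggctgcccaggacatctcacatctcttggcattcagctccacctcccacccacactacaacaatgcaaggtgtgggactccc

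**Figure D4:**
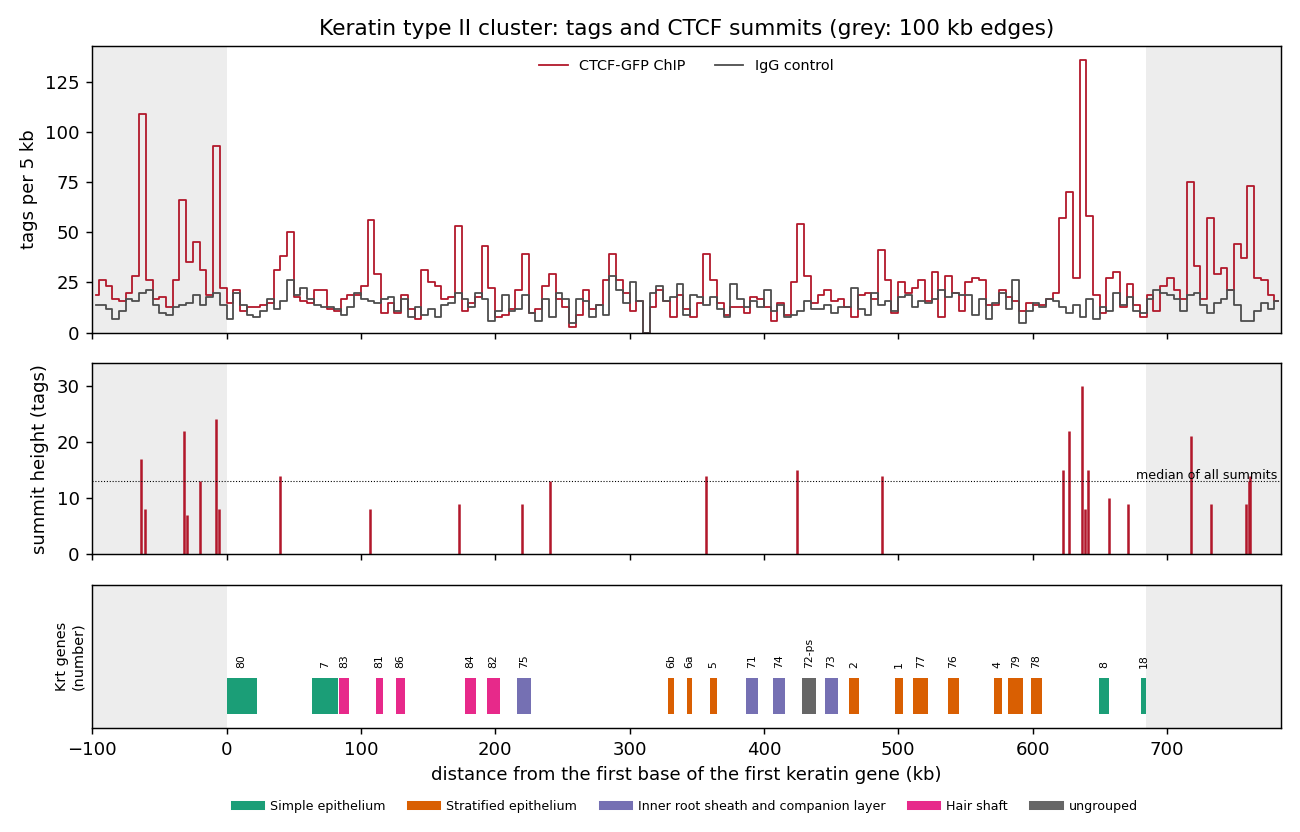
Tags per 5 kb of both libraries (top), height of each CTCF summit in tags (middle) and the 24 keratin genes coloured by group (bottom) along the type II cluster, by distance in kb from the first base of Krt80, with the 100 kb edges in grey. The tallest summit, 30 tags high, stands among 5 summits between Krt78 and Krt8, after a stretch of 136 kb with 6 keratin genes and no summit.

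In the edge before Krt80 the tallest summit, at 101170061, was 24 tags high with 24 CTCF and 0 IgG tags. The nearest summit to Krt80, at 101172277, was 8 tags high with 8 CTCF and 0 IgG tags, and it failed the recount. After Krt18 the first summit was 21 tags high, with 27 CTCF and 0 IgG tags, and lay 7978 bp upstream of Eif4b, another translation initiation factor gene. The other 4 of that edge lay in introns of Eif4b and Tenc1 and were 9 to 14 tags high.

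The order of motif strands was compared between neighbouring summits. Where both neighbours had a motif, 8 of 35 pairs in the keratin regions faced each other (22.9%), 5 pointed apart (14.3%) and 22 pointed the same way. Over all neighbouring summits 24.8% faced each other and 24.6% pointed apart. In the type I cluster with its edges, 4 of 22 pairs faced each other and 5 pointed apart, and in the type II cluster with its edges 4 of 13 faced each other and 0 pointed apart.

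Few keratin genes had a summit near their start. Within 5 kb of the start there was a summit at Krt222, Krt28 and Krt8, 3 of 51 genes, 5.88% (Wilson interval 2.02 to 15.9), and at 24.1% of all protein-coding genes. The summit of Krt222, a keratin-like gene, lay 515 bp upstream, with 8 CTCF and 0 IgG tags, and failed the recount. That of Krt8 lay 138 bp upstream, with 11 CTCF tags and 1 IgG tag. That of Krt28 lay 4799 bp upstream, with 13 CTCF and 0 IgG tags. Summits in a gene body were found in 3 of 51 members, Krt28, Krt20 and Krt75, again 5.88%, and in 36.0% of all protein-coding genes. Keratin genes are short, with a median length of 6.99 kb beside 15.4 kb for all.

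The nearest summit was nonetheless not far away. Its median distance from the start was 16525 bp for the keratin genes and 15553 bp for all protein-coding genes. Within 10 kb of a summit lay 31.4% of the keratin genes and 38.4% of all genes. Within 50 kb of a summit lay 50 of the 51 keratin genes (98%) and 77.0% of all genes. The exception was Krt76, a keratin of the palate, at 57823 bp. Of the 39 summits inside the clusters, 34 lay between coding genes. The same share was not counted over all summits, so this number cannot show whether the keratin clusters differ from other places.

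Other gene families that stand in clusters were counted the same way. A summit within 5 kb of the start was found for 4 of 46 Krtap genes, 1 of 46 genes of the epidermal differentiation complex and 38 of 1113 Olfr (olfactory receptor) genes, 3.41%. The interval of the keratin share overlaps those of the Krtap genes (3.43 to 20.3%), the epidermal differentiation complex (0.385 to 11.3%) and the Olfr genes (2.50 to 4.65%). The median distance to the nearest summit was 29751, 30684 and 113341 bp in these families.

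Tags within 1 kb of each start were compared between the libraries with an exact binomial test, two-sided, with Benjamini-Hochberg adjustment over all 22367 protein-coding genes. More CTCF than IgG tags were called at 10% of all genes, and at Krt222 and Krt8, 2 of the 51 keratin genes (3.92%). At Krt222 (start at 99105399 on chromosome 11) there were 25 CTCF and 3 IgG tags, a ratio of 7.93 (exact interval 2.42 to 41.1, adjusted p = 0.000747). At Krt8 there were 18 CTCF tags and 1 IgG tag, a ratio of 17.1 (exact interval 2.71 to 714, adjusted p = 0.00166). Both genes have a summit in the same window, called from the same tags.

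Krt18, the partner of Krt8, had 2 CTCF and 3 IgG tags at its start, and its nearest summit lay 9833 bp upstream. At Krt71, an inner root sheath keratin, 14 CTCF and 3 IgG tags gave an exact p of 0.0132 that did not pass the adjustment (0.1), and no summit lay within 29793 bp. At Krt26 the counts ran the other way, 2 CTCF and 9 IgG tags (exact p = 0.0345, adjusted p = 0.21). The remaining members had 2 to 14 CTCF tags and 1 to 11 IgG tags. At this depth a start of 2 kb holds a median of 5 CTCF and 6 IgG tags for the keratin genes, so small differences were not detectable.

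**Figure D5:**
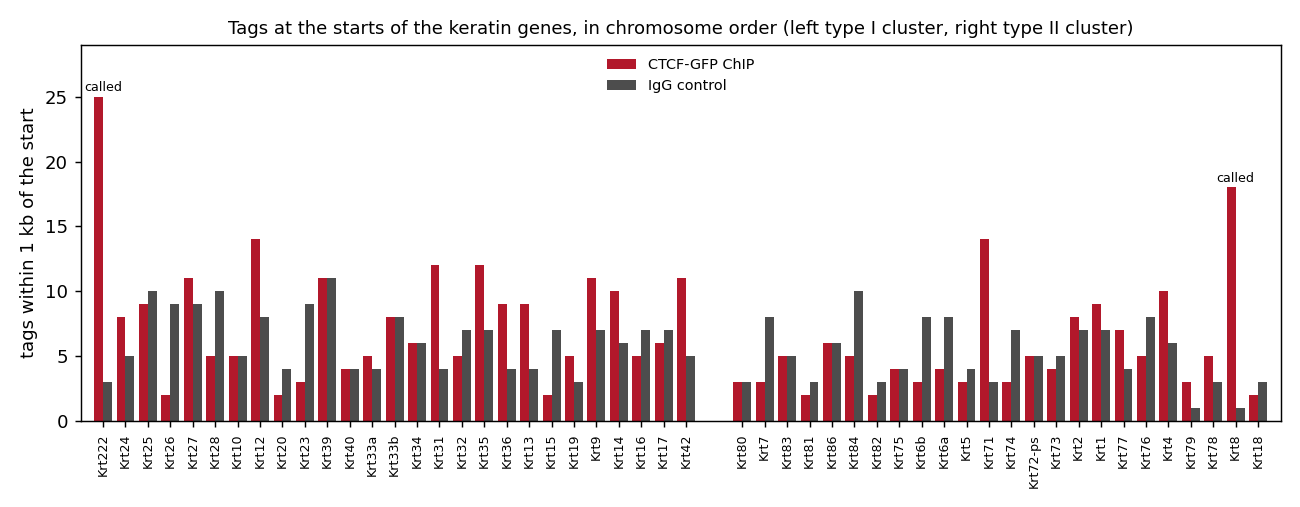
Tags within 1 kb of the start (y axis) of each of the 51 keratin genes in chromosome order (x axis), red bars for the CTCF-GFP ChIP and grey bars for the IgG control, with the genes called by the exact binomial test marked. Krt222 with 25 and Krt8 with 18 CTCF tags stand above the other genes, none of which exceeds 14.

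By group, the 20 keratins of stratified epithelia had 0 summits within 5 kb of a start and 0 in a gene body. The Wilson interval of each count was 0 to 16.1% of the genes. Over all protein-coding genes the shares were 24.1% and 36.0%. Stratified keratin genes had a median length of 5.59 kb, against 15.4 kb for all genes. For both counts the intervals of the named groups overlap, so no difference between groups was shown. Krt5 and Krt14, the basal pair, had 3 and 10 CTCF tags beside 4 and 6 IgG tags at their starts, with the nearest summit 8571 and 7269 bp away. Krt1, Krt2 and Krt10 of the differentiated epidermis had 9, 8 and 5 CTCF tags beside 7, 7 and 5 IgG tags. Krt4 and Krt13 of the mucosa had 10 and 9 CTCF tags beside 6 and 4 IgG tags, with the nearest summit 46077 and 48002 bp away. At these 7 genes the libraries differed by at most 5 tags.

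Krt6a, Krt16 and Krt17, which rise in wounds and are used in skin appendages, had 4, 5 and 6 CTCF tags beside 8, 7 and 7 IgG tags. Krt15 of the basal layer had 2 CTCF and 7 IgG tags. Some of these genes have close copies. Of the 35-base sequences of Krt6a, Krt6b and Krt16, 42.2%, 47.3% and 38.9% occurred again within the keratin regions. The bodies of these genes held 1.14, 1.64 and 2.79 IgG tags per kb, where the median keratin gene held 2.95. The part of the copies in these levels was not tested. Of the 51 genes, 11 had over 10% such sequences.

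The 14 hair shaft keratins also had 0 summits within 5 kb of a start and 0 in a gene body. The Wilson interval of each count was 0 to 21.5%, and the median gene length 5.95 kb. Their nearest summit lay 5237 to 46639 bp from the start. Krt31 and Krt35 had 12 CTCF tags each beside 4 and 7 IgG tags, and Krt86 had 6 of each. The 8 inner root sheath and companion layer keratins included Krt28 and Krt75, a companion layer keratin with a summit 9 tags high in an intron that failed the recount. Krt25 and Krt27 had 9 and 11 CTCF tags beside 10 and 9 IgG tags.

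The 7 keratins of simple epithelia included Krt8, with its summit at the start, and Krt20, with its summit in the gene. Krt7 and Krt19, widely used simple keratins, had 3 and 5 CTCF tags beside 8 and 3 IgG tags, with the nearest summit 23661 and 20903 bp away. Krt80 had 3 tags of each library at its start. Of the starts called with more CTCF than IgG tags, 1 was thus in this group, and the other, Krt222, is in none of the groups.

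Between summits, the level of the CTCF library differed between the clusters and their edges. Outside peaks the CTCF to IgG ratio, at equal depth, was 1.02 (0.972 to 1.07) inside the type I cluster and 1.16 (1.10 to 1.24) inside the type II cluster, where the genome outside peaks had 0.898 (0.897 to 0.899). In the edges it was 1.44 before Krt222, 1.80 after Krt42, 1.59 before Krt80 and 1.63 after Krt18, with exact intervals from 1.24 upward in all 4 edges. The IgG library was at 2.90 to 3.52 tags per kb in all 6 places, and the CTCF library at 3.56 to 3.77 inside the clusters and 4.85 to 5.94 in the edges. GC content was 44.1% and 48.3% inside the clusters and 46.3 to 51.0% in the edges, and its part in the difference was not tested. Tags that spill over from peaks are part of these values, and with peaks widened by 500 bp on each side the ratios inside the clusters were 0.974 and 1.13. The edges were not counted with widened peaks. There 20.5 to 43.1% of the CTCF tags lay in peaks, against 15.3% and 16.5% inside the clusters. The part of spill-over in the difference between clusters and edges was thus not tested.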

How the data were processed

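CTCF-GFP ChIP and IgG control chromatin of R1/E ESCs gave 1 library each. The authors deposited tags of 35 bp aligned to mm9, 1 line per tag with a count of 1, and for CTCF the MACS 1.4 peaks, with a score (the p-value against IgG on a minus log10 scale, multiplied by 10), and summits, with the height in overlapping tags as signal. The aligner is not given in the sources used here. Before counting, each tag was shifted 94 bp along its strand, since opposite strands lay 188 bp apart at the 1000 best peaks. Genes came from GENCODE M1 and sequence from NCBI m37 (mm9). The motif matrix was made from 192 CTCF sequences of the study's motif list, with a pseudocount of 1 against background frequencies of 0.29 (A, T) and 0.21 (C, G). The recount used an effective genome of 1870000000 bp. Computations used scipy 1.17.1 and pysam 0.24.0 under Python 3.11.15, tables pandas 2.3.3 with numpy 2.4.6, and figures matplotlib 3.10.9, and the tests were tested on simulated data.

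The members and lists were chosen with earlier results of these data known. Genes named are the first and last of each cluster, members with a summit in the body or within 5 kb of the start or called at the start, and a fixed set of keratins of each epithelium. Krt85, Krt87 and Krt72 of the gene groups are not among the symbols matched. Krt72-ps is annotated as protein-coding and was kept. Krt26, Krt6b, Krt9, Krt76 and the other members of runs without a summit, and the stretches without a summit, were named after their values had been seen. Alternatives varied the score threshold, windows, edges, scaling, tag shift and motif threshold.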

Additional observations from a re-analysis of the deposited data

How the results depend on the processing

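Of 34 alternatives to 13 results, 21 gave a value close to the one reported and 13 moved it. With a score of at least 100, which 59.2% of all summits had, the type I cluster held 14 summits and the type II cluster 8. At this score 0 keratin genes had a summit within 5 kb of the start, and the share of all genes was not counted. A motif was found at 87.5% of the keratin-region summits with this score (79.9% of all summits with it). A motif p of 1e-04 gave 84.4% (84.1% of all), and a motif within 50 bp of the summit 34.4% (36.4%). The ratio at summits was 10.5 over 300 bp on each side. With libraries scaled on tags outside peaks, the ratios outside peaks were 1.13 and 1.30 in the type I and type II cluster, and Krt71 was called beside Krt222 and Krt8 (12.7% of all genes). With 500 bp on each side of the start, 1 keratin gene was called, Krt8 (4.77% of all genes). Within 10 kb of the start, 16 keratin genes had a summit, 31.4% beside 38.4% of all genes, a smaller gap than at 5 kb. With 1 kb upstream added to the gene body, 5 had a summit in it (39.3% of all genes). At a p stricter than 1e-05, 33 of the 64 keratin-region summits passed the recount. The share of all summits at that p was not counted, so this number cannot show whether keratin-region summits are weaker than others. No paired analysis was possible because each antibody has 1 library, and for the same reason no library could be left out. Depth limits single genes, since the median keratin start holds 5 CTCF and 6 IgG tags.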
